A study of Mus musculus with 8 samples.

Results

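The cytosines described here are those listed by the authors for 5-formylcytosine (5fC) in Tdg-/- mouse embryonic stem cells with 100 reads or fewer over both libraries. They number 6896 of the 7213 cytosines on the 5fC list (95.6%), out of 12019 listed for 5fC and 5caC together. The series has 8 samples, 1 library for each of 8 groups, which cross 2 Tdg genotypes (Tdg-/- and Tdg fl/fl), 2 capturing antisera (against 5fC and against 5caC) and 2 treatments (bisulfite alone, and protection before bisulfite). The 2 libraries compared here came from feeder-free embryonic stem cells of strain C57BL/6-ICR that lack Tdg. Both were made from genomic DNA sonicated to about 400 bp and captured with anti-5fC serum. One was treated with bisulfite alone. The other was first reacted with 10 mM O-ethylhydroxylamine for 4 h at 37 °C, which protects 5fC from bisulfite. Each group has 1 library, so no spread between samples can be given, and every test on reads compares these 2 libraries or 2 positions within a library. The labels do not say whether the knockout line is a single clone, and the floxed libraries were not analysed here.

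5fC is made from 5-methylcytosine (5mC) by TET enzymes, by way of 5-hydroxymethylcytosine (5hmC), and can be oxidised further to 5-carboxylcytosine (5caC). The DNA glycosylase TDG excises 5fC and 5caC, and base excision repair then restores an unmodified cytosine, so cells without TDG retain bases that would otherwise be removed. Bisulfite converts unmodified cytosine, 5fC and 5caC, which are then sequenced as T, and leaves 5mC and 5hmC as C. After the hydroxylamine reaction 5fC also reads as C. The bisulfite-only level, the percentage of reads that stay C, is thus read as 5mC plus 5hmC, the protected level as those bases plus protected 5fC, and the rise between them, in percentage points, as the 5fC signal. All levels refer to DNA captured by the antiserum, not to all copies of the cytosine in the cells.

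The list fixes much of what can be seen. No listed cytosine had fewer than 10 reads in either library or a lower level with protection, and each had an unadjusted p below 0.05 by Fisher's exact test, two-sided. By that rule 100% of the 7213 cytosines were called, so the rise itself is described without a test. At the cytosines analysed, the protected library had a median of 19 reads (from 10 to 72) and the bisulfite-only library a median of 14 (from 10 to 55). Protected reads were more numerous at 5232 cytosines (75.9%). Together these cytosines held 145973 protected reads, 63.9% of those on the list, and 110013 bisulfite-only reads (62.1%). Pooled over all these reads, 41.4% were unconverted with bisulfite alone and 80.8% with protection. The 317 cytosines above the limit gave 73.9% and 80.5%. The limit falls between cytosines of nearly equal depth. Just inside it, position 31376388 of chromosome 14 (minus strand, mm9, as for all positions here) went from 26 of 38 to 59 of 62 unconverted reads. Position 18225143 of chromosome 16 (minus strand) went from 34 of 41 to 58 of 59. Just outside it, position 17488730 of chromosome 12 (plus strand) went from 14 of 42 to 42 of 59, and position 40123119 of chromosome 4 (minus strand) from 13 of 33 to 50 of 68.

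The bisulfite-only level spread widely, while the protected level was crowded towards full protection. Of the 6896 cytosines, 307 (4.45%, exact 95% binomial interval 3.98 to 4.97) had no unconverted read with bisulfite alone. A further 1143 (16.6%, 15.7 to 17.5) lay above 0 and under 20%, and 1910 (27.7%, 26.6 to 28.8) from 20 to under 40%. Another 1960 (28.4%, 27.4 to 29.5) lay from 40 to under 60%, and 1576 (22.9%, 21.9 to 23.9) at 60% or more. The highest bisulfite-only level was 89.2%. With protection, 1487 cytosines had no converted read and 874 stayed under 60%. In squares of 10 by 10 points, the fullest held 896 cytosines (13%), with 60 to under 70% unconverted before and 90% or more after protection. The next held 707 cytosines (10.3%), at 50 to under 60% before and 90% or more after.

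**Figure D1:**
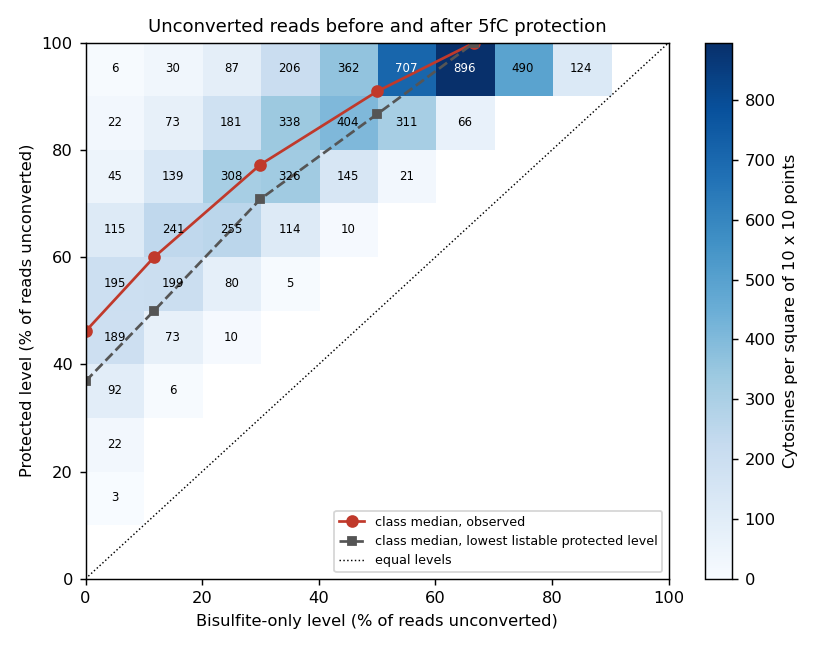
Number of cytosines by bisulfite-only level (x axis, % of reads unconverted) and protected level (y axis, % of reads unconverted) in squares of 10 points, with the medians of the 5 classes of bisulfite-only level, observed (red) and lowest listable (grey). The fullest square holds 896 cytosines, and the observed and lowest listable medians meet at 100% in the class of 60% or more.

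Cytosines with more unconverted reads before protection also had more after it. The median protected level was 46.2% (95% order-statistic interval 45.5 to 50) where no read was unconverted before, 60% (59.5 to 61.5) in the class above 0 and under 20%, and 77.3% (76.9 to 78.3) from 20 to under 40%. It was 90.9% (90 to 90.9) from 40 to under 60% and 100% at 60% or more. The rise ran the other way only in the upper classes. Its medians were 46.2 points (45.5 to 50), 47.9 (46.8 to 48.5) and 47 (46.7 to 47.7) in the 3 lower classes, then 41.7 (41.2 to 41.7) and 29.5 (28.8 to 30). Over all 6896 cytosines, bisulfite-only and protected levels had a Spearman correlation of 0.85 (Pearson 0.83), and bisulfite-only level and rise one of -0.62 (Pearson -0.62). These describe a list chosen on both levels and are no test.

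The listing rule bounds this relation. Given the reads of a cytosine and its bisulfite-only count, a lowest protected level could still reach the list. The median of that level was 36.8% in the class with no unconverted read, then 50%, 70.8%, 86.7% and 100%. Its Spearman correlation with the bisulfite-only level was 0.93, higher than that of the observed protected level. In the class of 60% or more, 842 of 1576 cytosines (53.4%) could be listed only if every protected read was unconverted. This held for 228 of 1960 cytosines (11.6%) from 40 to under 60%, and for none in the 3 lower classes.

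Where a lower protected level could also have been listed, full protection was not fixed by the rule, and these cytosines are counted apart. All protected reads were unconverted at 124 of the 734 such cytosines of the highest class (16.9%) and at 210 of 1732 (12.1%) from 40 to under 60%. Below that, it was 73 of 1910 (3.82%), 9 of 1143 (0.787%) and 1 of 307 (0.326%). These shares are still bounded by the rule. Over all cytosines of the highest class the lower quartile of the lowest listable protected level was 94.4%, against 33.3% in the lowest class. The part of the rule in the order of these shares was not tested. Many rises were also the smallest that could be listed at their totals of reads and of unconverted reads. Given the reads of both libraries and the total of unconverted reads, 5279 cytosines (76.6%) stood exactly at the lowest listable rise. The share was 71.7% in the class with no unconverted read before protection, 63.8% above 0 and under 20%, and 66.2% from 20 to under 40%. It was 80.3% and 94.6% in the upper 2 classes. This measure depends on what is held fixed. With the bisulfite-only count held instead, the median cytosine of each of the 3 lower classes had 1 unconverted protected read more than the lowest listable count. In the upper 2 classes the median was 0 reads above it.

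The same data can be read as a division of each cytosine into 3 parts: reads unconverted with bisulfite alone, reads added by protection, and reads converted in both libraries. The last part would hold unmodified cytosine, 5caC and 5fC that escaped protection, which these libraries do not separate. Its median was 53.8% (50 to 54.5) where no read was unconverted before protection, 40% (38.5 to 40.5) in the next class, 22.7% (21.7 to 23.1) from 20 to under 40%, 9.09% (9.09 to 10) from 40 to under 60% and 0 at 60% or more. The rise can also be given as a percentage of the share that bisulfite alone converted. Its median was then 46.2% (45.5 to 50) in the lowest class, and 54.2%, 67.4%, 82% and 100% in the others. The 2 libraries hold different molecules, and the median lowest listable protected level climbed from 36.8% to 100% over these classes. These percentages are thus no measured yield of protection. Pooling reads within classes gave a less extreme picture. The protected share was 46.9% against 0 in the lowest class, 58.5% against 12.3%, 74.8% against 29.6% and 88% against 48.8% in the middle ones, and 96.8% against 69.7% in the highest.

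**Figure D2:**
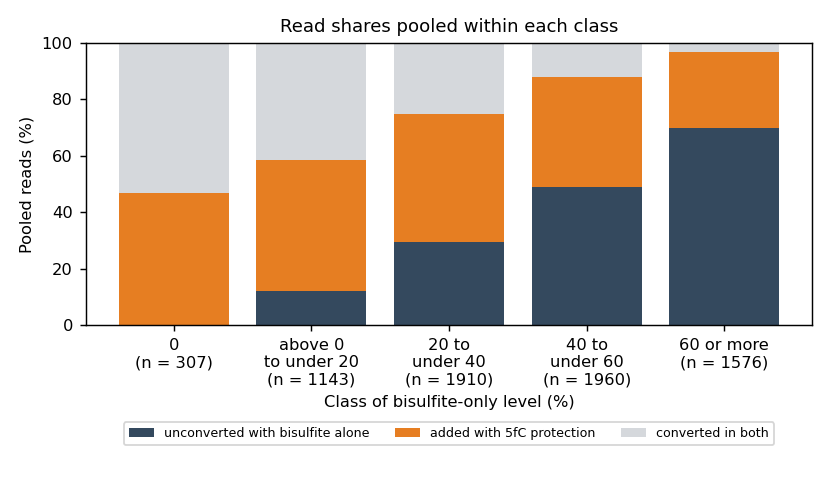
Reads pooled within each class of bisulfite-only level (x axis, with the number of cytosines), divided into reads unconverted with bisulfite alone (dark), added with protection (orange) and converted in both (grey), as % of reads (y axis). Reads converted in both libraries make up most of the total where no read was unconverted before protection, and a thin band in the class of 60% or more, where 96.8% of protected reads were unconverted.

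Depth moved with all of these values. At the 1380 cytosines covered by 20 to 25 reads in all, the medians were a bisulfite-only level of 30.8%, a protected level of 90% and a rise of 50 points. The 227 with 76 to 100 reads had 53.7%, 82.1% and 25.3 points. The lowest listable rise fell alongside, from a median of 48.6 points to 22.6. Cytosines at 60% or more before protection made up 12.5% of the shallowest class and 43.6% of the deepest. Those with no unconverted read made up 8.12% and 0.441%. Over all cytosines, total reads had a Spearman correlation of 0.22 with the bisulfite-only level and of -0.61 with the rise. The part of depth in the class shares was not tested.

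The deepest cytosines of each class, named by a rule that uses depth and not level, show what single positions look like where counting error is smallest. The 95% intervals that follow are exact (Clopper-Pearson) and cover counting error only, since reads without molecular identifiers may be copies of one another. Position 101119114 of chromosome 4 (plus strand) had 0 of 31 unconverted reads with bisulfite alone, which allows a share of up to 9.68% by the limit of 3 counts (exact upper bound 11.2%), and 8 of 49 with protection (16.3%, 7.32 to 29.7). Position 63236376 of chromosome 2 (plus strand) had 0 of 43, which allows up to 6.98% by the same limit (exact upper bound 8.22%), and 5 of 32 (15.6%, 5.28 to 32.8). Both rises were the lowest that could be listed at these reads and at the same total of unconverted reads. At that total no larger rise was possible either, since every unconverted read was a protected one. With the bisulfite-only count held instead, they need not be the lowest.

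In the class above 0 and under 20%, position 191713370 of chromosome 1 (plus strand) went from 3 of 38 (7.89%) to 18 of 58 (31%, 19.5 to 44.5). Position 166424811 of chromosome X (plus strand) went from 2 of 41 (4.88%) to 20 of 58 (34.5%, 22.5 to 48.1). In these deep examples most captured copies thus still read as T after protection. The next class gave position 80425512 of chromosome 15 (minus strand), from 12 of 47 (25.5%) to 26 of 53 (49.1%, 35.1 to 63.2). It also gave position 6490812 of chromosome 11 (minus strand), from 16 of 46 (34.8%) to 31 of 54 (57.4%, 43.2 to 70.8).

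In the class from 40 to under 60%, the 2 deepest positions had the largest rises of the 10 named, 33.9 and 32.7 points. Position 88039856 of chromosome 17 (minus strand) went from 21 of 42 (50%, 34.2 to 65.8) to 47 of 56 (83.9%, 71.7 to 92.4). Position 94123468 of chromosome 8 (plus strand) went from 26 of 47 (55.3%, 40.1 to 69.8) to 44 of 50 (88%, 75.7 to 95.5). The 2 deepest positions of the highest class are those just inside the limit of 100 reads, on chromosome 14 (68.4% to 95.2%) and chromosome 16 (82.9% to 98.3%). The median cytosine, with its 19 and 14 reads, is known far less precisely than any of these 10.

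The next question was how alike neighbouring listed cytosines are. Consecutive cytosines along each chromosome formed 6870 pairs, a median of 69722 bp apart, of which 1476 lay within 200 bp. Cytosines close together on the same strand had similar bisulfite-only levels. The median absolute difference was 11.5 points (95% order-statistic interval 10 to 13.6) over 444 same-strand pairs 2 to 20 bp apart, and 14.4 points (13.3 to 16) over 663 pairs 21 to 100 bp apart. It reached 21.4 points (16.7 to 25) over 150 pairs over 100 and up to 200 bp apart, about the 21.1 points (20 to 22.9) of the 1508 same-strand pairs more than 100000 bp apart. The fall was not even, since the 233 same-strand pairs over 200 and up to 1000 bp apart had 18.9 points (15.5 to 22) and the 184 over 1000 and up to 10000 bp apart 15.2 points (12.7 to 20). At over 10000 and up to 100000 bp it was 20.2 points (18.9 to 22.5). The Spearman correlation of the paired levels fell from 0.47 (Pearson 0.48) at 2 to 20 bp to 0.44 (Pearson 0.45) and 0.11 in the next 2 distance classes. It was higher again over the following 2, at 0.22 and 0.27, and then 0.04, with 0.03 over 100000 bp.

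Protected levels were also closest at short range. On the same strand their median absolute difference was 10.1 points at 2 to 20 bp, 12.5 at 21 to 100 bp and 16.5 at over 100 and up to 200 bp, against 14.3 over 100000 bp, with Spearman correlations of 0.44, 0.41, 0.06 and 0.03. In the 2 classes over 200 and up to 10000 bp it was 11.3 and 11.2 points, with correlations of 0.13 and 0.21. At single-pair level few neighbours could be told apart. Fisher's exact test of the reads of the 2 cytosines, two-sided and Benjamini-Hochberg adjusted over all 6870 pairs, called 415 pairs different in bisulfite-only reads (6.04%) and 579 in protected reads (8.43%). Same-strand pairs within 200 bp were called in 28 of 1257 cases for bisulfite-only reads (2.23%, exact interval 1.49 to 3.20). Same-strand pairs over 100000 bp apart were called in 116 of 1508 (7.69%). For protected reads these were 64 of 1257 (5.09%) and 142 of 1508 (9.42%). With a median of 14 and 19 reads, pairs not called are not shown to be equal. The test takes the reads of the 2 cytosines as independent, which fails where the same reads cover both. The called shares of near and far same-strand pairs are therefore not on an equal footing.

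Close same-strand cytosines can be covered by the same reads, and the depths show it. Over 2 to 20 bp the numbers of protected reads at the 2 cytosines had a Spearman correlation of 0.90 and those of bisulfite-only reads 0.85. Over 21 to 100 bp these were 0.58 and 0.53, and at over 100 and up to 200 bp 0.21 and 0.09. In the 2 classes over 200 and up to 10000 bp they were 0.12 and 0.07 for protected reads and 0.12 and 0.13 for bisulfite-only reads, while the correlations of bisulfite-only level were higher than at over 100 and up to 200 bp. The part of shared reads in the likeness of levels was not tested.

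Opposite strands offer neighbours that come from separate bisulfite-converted strands. Among 126 such pairs 2 to 100 bp apart the median absolute difference of the bisulfite-only level was 18.8 points (14.7 to 23.3), with a Spearman correlation of 0.19. Among 1107 same-strand pairs at these distances it was 13.5 points (12.5 to 14.7), with 0.45. Read depths on opposite strands were nearly unrelated (Spearman 0.10 for protected and -0.01 for bisulfite-only reads). At over 100 and up to 200 bp the order was the other way, with 16.3 points (13.5 to 22.1) and a Spearman correlation of 0.26 over 71 opposite-strand pairs, against 21.4 points and 0.11 over 150 same-strand pairs. Pairs of opposite strands were few at short range, which widens their interval, and the difference between strands was not tested.

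Close same-strand neighbours also had similar rises. On the same strand within 200 bp the median absolute difference of the rise was 8.29 points (7.79 to 8.92), against 11.1 over 100000 bp, and the Spearman correlation was 0.37. On opposite strands within 200 bp the rise had a correlation of 0.02 (219 pairs). At their total of unconverted reads, 76.6% of cytosines stood exactly at the lowest listable rise. That rise is set by reads that close same-strand cytosines can share, so these values describe listed rises only.

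**Figure D3:**
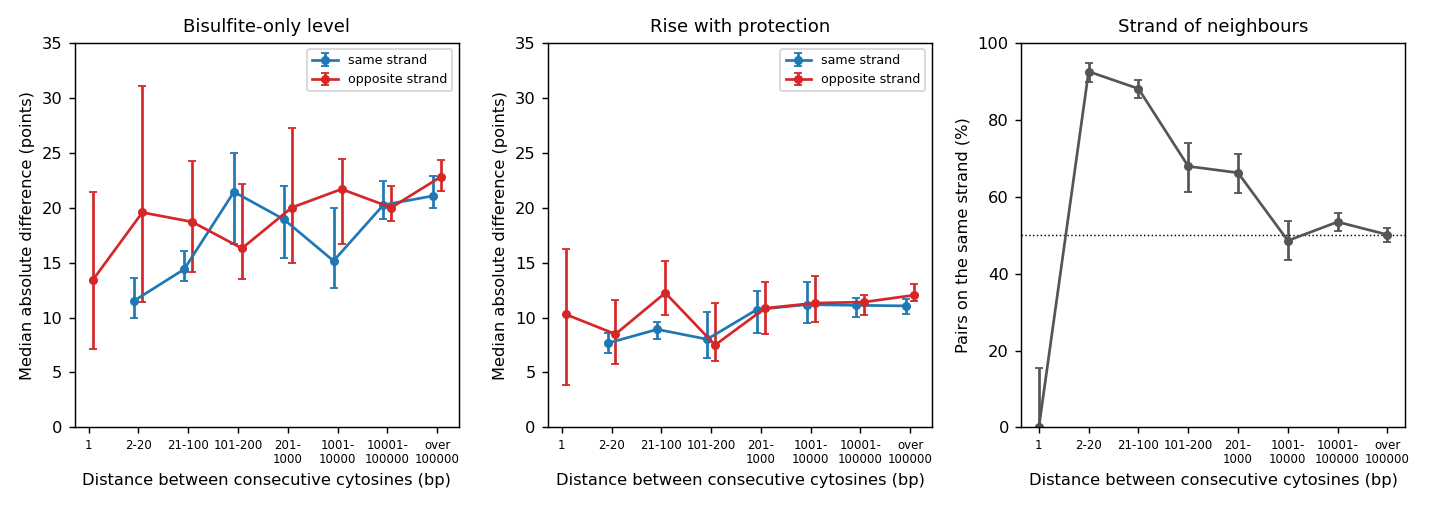
Median absolute difference between consecutive cytosines in bisulfite-only level (left) and rise (middle), in percentage points, by distance in bp, on the same (blue) and opposite (red) strand, with 95% order-statistic intervals, and the percentage of pairs on the same strand with exact 95% intervals (right). Same-strand differences in bisulfite-only level start at 11.5 points for 2 to 20 bp, and the same-strand share goes from 92.5% at 2 to 20 bp to 50.1% over 100000 bp.

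Near neighbours lay mostly on 1 strand. Of the pairs 2 to 20 bp apart, 92.5% (exact 95% interval 89.8 to 94.7) were on the same strand, and 88% (85.5 to 90.3) of those 21 to 100 bp apart. The share was 67.9% at over 100 and up to 200 bp, 66.2% (61 to 71.1) at over 200 and up to 1000 bp and 48.5% (43.4 to 53.7) at over 1000 and up to 10000 bp. Over 100000 bp it was 50.1% (48.3 to 51.9). Over the whole set the strands were even, with 3453 cytosines on the plus and 3443 on the minus strand. Whether the other strand was covered by 10 reads at these places is not in the list.

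The spacing of neighbours also bears on sequence context, which was not read here. All 22 pairs exactly 1 bp apart had the plus-strand cytosine first, the arrangement of the 2 cytosines of a CpG. No 2 cytosines of the same strand were adjacent, and the closest were 2 bp apart, in 30 pairs. Cytosines of 1 strand next to each other would have been possible if CC dinucleotides had been listed.

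CpG methylation is usually copied to both strands after replication, so the 22 CpGs listed on both strands allow a direct comparison of strands. They hold 0.638% of the cytosines. Their bisulfite-only levels were low for the list, with a median of 26.9%, and differed between strands by 13.4 points in the median, from 0.484 to 26.4. The plus strand was higher in 14 and the minus strand in 8. By Fisher's exact test, two-sided, no CpG differed in bisulfite-only reads at an unadjusted p below 0.05 (smallest p = 0.0673). In protected reads 2 did by the same exact test (smallest p = 0.0112), and neither passed adjustment over all 6870 pairs. Over all 6870 pairs, 1398 (20.3%) had an unadjusted p below 0.05 in bisulfite-only reads and 1508 (22%) in protected reads. With as few as 10 reads on a strand, CpGs that did not differ by this test are not shown to be equal. The Spearman correlation between strands was 0.59 for the bisulfite-only level (Pearson 0.68), 0.46 for the protected level and 0.32 for the rise.

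The 5 CpGs with the deepest coverage on both strands show the range. At positions 103673837 and 103673838 of chromosome 11, bisulfite-only reads were unconverted in 10 of 35 on the plus and 18 of 36 on the minus strand, and protected reads in 31 of 53 and 32 of 38. The protected levels, 58.5% and 84.2%, gave the smallest p of the 22, while the rises were close, 29.9 and 34.2 points. At positions 31903960 and 31903961 of chromosome 17 both strands nearly coincided, with 10 of 34 and 9 of 34 before and 28 of 45 and 34 of 59 after protection. Here the rises were 32.8 and 31.2 points.

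A second CpG of chromosome 17, at 39980736 and 39980737, read mostly as C before protection, in 31 of 41 and 13 of 23 reads, and in 37 of 38 and 31 of 35 after it. At 99294955 and 99294956 of chromosome 9 the bisulfite-only reads were alike, 7 of 20 and 11 of 31, and the protected ones were 18 of 23 and 30 of 48. The last, at 78834253 and 78834254 of chromosome 11, had 6 of 18 against 2 of 19 before protection and 21 of 31 against 20 of 39 after. None of these 4 pairs differed between strands at an unadjusted p below 0.05 by Fisher's exact test in either library.

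**Figure D4:**
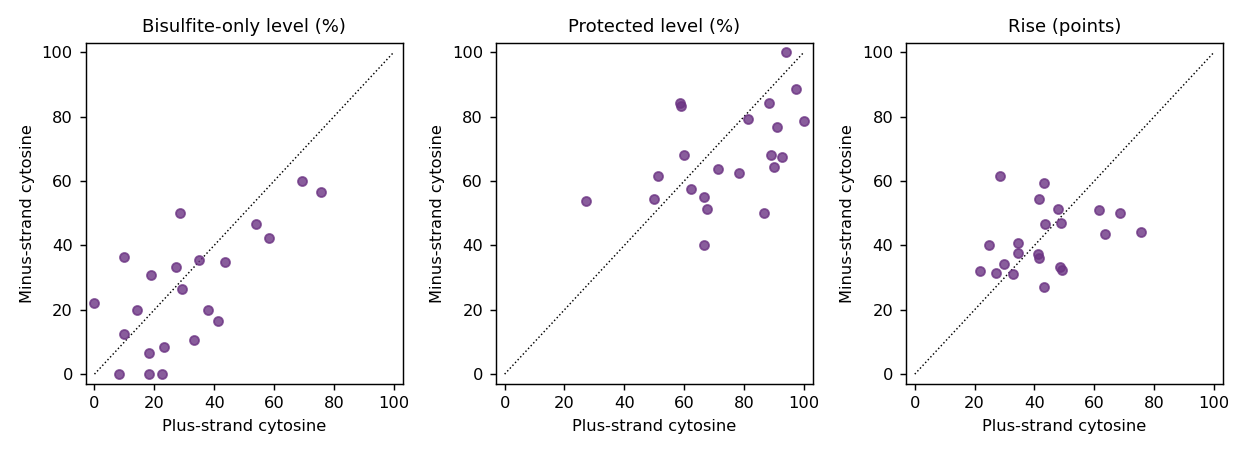
The 22 CpGs with both cytosines in the set, plus-strand against minus-strand value, for the bisulfite-only level (%), the protected level (%) and the rise (points), 1 point per CpG, with the line of equal values. Bisulfite-only levels differ between strands by at most 26.4 points.

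Joining cytosines within 200 bp gave 1046 groups of 2 or more, with 2522 members (36.6%), and 4374 cytosines that stood alone. Groups of 2 numbered 744, groups of 3 216, groups of 4 62, and 24 had 5 or more. All members were on 1 strand in 872 groups (83.4%). Grouped cytosines had a lower median bisulfite-only level than single ones, 36.4% (35 to 37.5) against 41.7% (40.9 to 42.9), and a lower protected level, 81.8% (80.8 to 82.6) against 88.8% (87.9 to 89.5). Their median rise was 40.4 points against 41.8. Grouped cytosines were also deeper, with medians of 21 and 15 reads against 17 and 13, and the part of depth in these differences was not tested.

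Levels varied inside groups. In the 302 groups of 3 or more the range of the bisulfite-only level had a median of 29.9 points and that of the rise 16.1. The bisulfite-only level spanned 40 points or more in 82 of them and 20 or less in 79. Their median length was 104.5 bp and the longest, of any size, covered 474 bp. Groups were joined over gaps of up to 200 bp, and their lengths were not compared with those of the sonicated fragments.

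The largest group held 10 cytosines over 449 bp of chromosome 11, from 103673554 to 103674002, 7 on the plus and 3 on the minus strand. Low and high levels lay side by side in it. Positions 103673554, 103673754 and 103673837 had bisulfite-only levels of 15%, 28.1% and 28.6% and protected levels of 61.1%, 65.3% and 58.5%. The minus-strand cytosine at 103673838 stood between, at 50% and 84.2%. The other 6 lay between 62.5 and 84.8% before and between 84.6 and 98.1% after protection, among them position 103673955 with 28 of 33 and 53 of 54 unconverted reads. Rises ran from 13.3 points at that position to 46.1 at the first.

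The other groups chosen for their size were lower before protection. On chromosome 11 from 78834241 to 78834486, 8 cytosines within 246 bp had bisulfite-only levels of 0 to 43.5% and protected levels of 43.3 to 71.7%. Position 78834264 there had 0 of 17 unconverted reads before protection and 13 of 30 after it. A group of 8 on chromosome 4, from 55543148 to 55543562, differed by strand in part. Its 5 plus-strand cytosines had 33.3 to 50% before protection, while the minus-strand cytosines at 55543293 and 55543332 had 4.35% and 10.5% and the third, at 55543562, had 41.2%.

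On chromosome 1, 7 cytosines lay within 120 bp, from 14221544 to 14221663. The outer 2 had 52.9 and 50% before protection and the 5 between them 0 to 18.2%, but protected levels of 50 to 86.7% in that middle part left rises of 47.9 to 68.5 points, above those of the outer ones (40.4 and 38.9). Reads were few there, at 10 to 18 per library. A group of 6 on chromosome 9, from 99294922 to 99295003, ranged from 10 to 54.5% before and from 47.6 to 90.3% after protection. Groups were named for their number of cytosines, and no test compares the members within them.

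Along the autosomes the cytosines were unevenly spread and concentrated towards the far end of the chromosomes. The 19 autosomes held 6820 of the cytosines (98.9%). In the 2403 bins of 1 Mb between the first and last listed bin of each autosome the median was 1 cytosine, with quartiles of 0 and 4. No cytosine fell in 847 bins (35.2%, exact 95% interval 33.3 to 37.2). The densest 10% of bins, 240 in number, held 3048 cytosines (44.7%). The variance between bins was 5.88 times the mean, and 4.18 times with each group counted once. Neighbouring bins were alike, with a Spearman correlation of 0.41 (Pearson 0.46) over 2384 pairs of adjacent bins. The cytosines examined before listing are not in the file, so density has no denominator of coverage or CpGs.

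Mouse autosomes have their centromere at the low-numbered end, so the last part of the span is the one next to the far telomere. With each autosome's listed span cut into 10 equal parts, the last held 1452 cytosines (21.3%), against 10% for an even share, and the part before it 1029 (15.1%). The last 3 parts together held 3258 cytosines (47.8%). The first 7 parts held between 6.61 and 8.26% each. With each group counted once the last part held 20.9%. It was above the even share on 18 of the 19 autosomes and was the fullest part on 9. Levels did not follow this gradient closely. The median bisulfite-only level was 45% in the first part, between 36.4 and 41.2% in the following 6 and 40% in each of the last 3. The median rise was between 40 and 43.6 points in all 10.

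**Figure D5:**
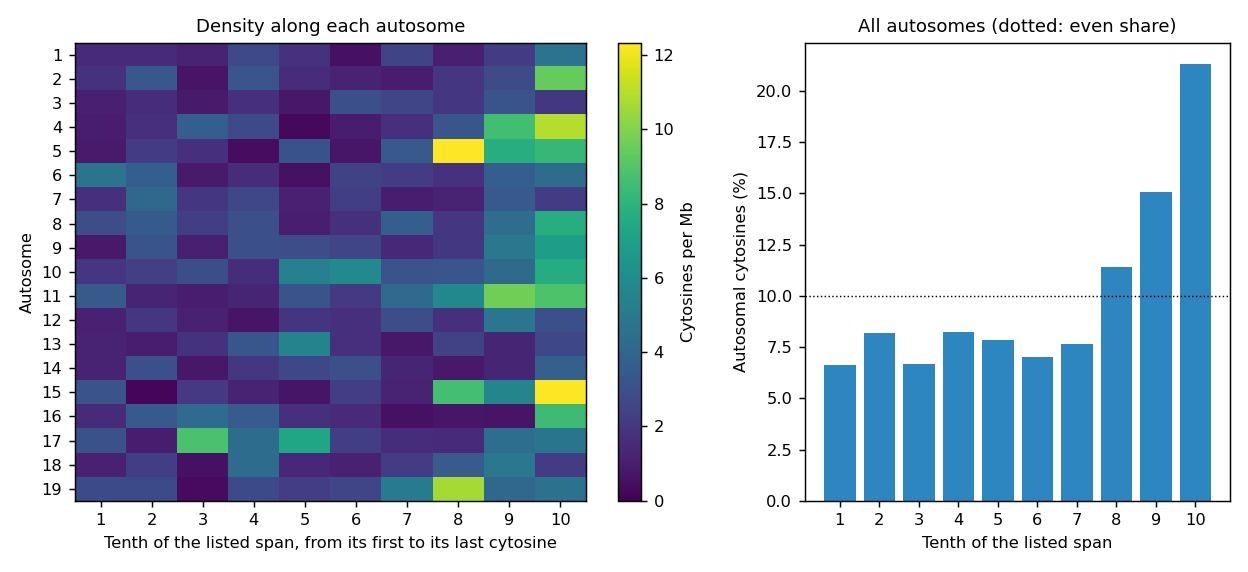
Cytosines per Mb in each of 10 equal parts of the listed span of the 19 autosomes (left, colour), from the first to the last listed cytosine, and the percentage of all autosomal cytosines in each part (right, bars, dotted line at the even share of 10%). The last part holds 21.3% and the one before it 15.1%.

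Chromosomes differed in density more than in level. Density, over the listed span, went from 1.88 cytosines per Mb on chromosome 3 to 4.07 on chromosome 11 and 4.06 on chromosome 5. With groups counted once these were 1.52, 3.21 and 3.15. Empty bins made up 42.7% on chromosome 12 and 23.7% on chromosome 19. The median bisulfite-only level ranged only from 36.4% on chromosomes 1 and 16 to 42.9% on chromosome 8, and their 95% order-statistic intervals overlapped (30.8 to 41.7 for both, and 39.1 to 46.7). Median rises lay between 39.6 points on chromosome 18 and 42.9 on chromosome 16.

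The fullest bin was 97000001 to 98000000 of chromosome 15, with 34 cytosines in 18 groups or single positions, the largest of 6. Its bisulfite-only levels went from 0 to 76.5% with a median of 34.8%, and the median rise was 39.8 points. The bin from 114000001 to 115000000 of chromosome 5 held 31 cytosines at 23 places, with a median bisulfite-only level of 42.1% and a range of 0 to 84.6%. On chromosome 2, from 168000001 to 169000000, there were 30 at 19 places, with a median of 37.4%. The bins from 28000001 to 29000000 of chromosome 17 and from 45000001 to 46000000 of chromosome 19 held 27 each, with medians of 37 and 33.3%. These bins thus gathered many separate places of mixed level rather than 1 long group.

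Among bins with 10 or more cytosines, the number of cytosines was nearly unrelated to their levels. Over these 177 bins it had a Spearman correlation of 0.02 (Pearson 0.01) with the bin's median bisulfite-only level. With the bin's median rise it had one of 0.07 (Pearson 0.07). The bin medians of the bisulfite-only level had an interquartile range of 12.5 points, and 128 of the 177 lay between 30 and 50%. Inside a bin the interquartile range was 27.9 points in the median, against 35.7 over all autosomal cytosines. Cytosines alone in their bin stood somewhat higher. The 437 of them had a median bisulfite-only level of 47.8% (45.5 to 50), against 40.7% (40 to 42.3) in bins of 2 to 4 and 38.5% (36.4 to 40) in bins of 10 to 19. Median protected levels in the same order were 91.3, 86.7 and 84.2%, and median reads over both libraries 31, 32 and 33.

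Some dense bins did stand at the ends of the range. These were chosen after their values were seen. The lowest median bisulfite-only level was 14.4%, from 102000001 to 103000000 of chromosome 15 (10 cytosines), followed by 17.4% from 118000001 to 119000000 of chromosome 5 (18 cytosines at 15 places). The highest were 68.2% from 144000001 to 145000000 of chromosome 5 (11 cytosines) and 63.3% from 58000001 to 59000000 of chromosome 13 (12 cytosines). Their median rises were 44.6, 43.9, 26.7 and 29.6 points in that order. The first 2 had median total reads of 26 and 27.5 and the last 2 of 36 and 45.5, so depth moved with level here too, and its part was not tested.

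Outside the autosomes there were 76 cytosines. The X chromosome held 55, with a median bisulfite-only level of 50% and a median rise of 36 points, at medians of 23 and 15 reads. Pieces without a place in the assembly held 20, and the Y chromosome 1.

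The 5caC list of the same cells, cut at the same 100 reads, gives values for orientation. Antiserum, protecting reaction and libraries all differed, and with 1 library per group the differences were not tested. Its 4712 cytosines had a median bisulfite-only level of 10% where the 5fC cytosines had 40%, and 4.27% of them, against 15.5%, could be listed only at full protection. Bisulfite-only level and rise had a Spearman correlation of -0.16 there and of -0.62 here. Same-strand neighbours 2 to 20 bp apart differed by a median of 8.33 points in bisulfite-only level among 287 5caC pairs, against 14.8 over 100000 bp, and 89.4% of pairs at 2 to 20 bp shared a strand. Over the 2403 autosomal bins the 2 lists' counts had a Spearman correlation of 0.68 (Pearson 0.72), given as a description, since bins share CpG content and captured DNA. The 5 fullest 5fC bins held between 11 and 19 5caC cytosines, but less full bins varied widely. The bin from 53000001 to 54000000 of chromosome 19 held 21 of each mark. The bin from 39000001 to 40000000 of chromosome 17 held 14 5fC and 0 5caC cytosines. These last 2 bins were chosen after their counts were seen, and 5caC cytosines with more than 100 reads are not counted.

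No genome or annotation of the mm9 build was used here, so positions are given without genes, exons, promoters or sequence.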

How the data were processed

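Per the labels' protocols, DNA of Tdg-/- and Tdg fl/fl cells was sonicated, immunoprecipitated, protected or left unprotected, treated with bisulfite and made into libraries. Bismark, HOMER and the mm9 build appear in the submitters' processing notes, with no role stated. For each listed cytosine the authors deposited, per the file headers, whole-number read counts (C and T reads, protected and bisulfite-only), a difference of fractions and a p-value. The deposited difference and p-value were recomputed from the counts, and differed by at most 5e-05 and by at most 0.39% of the p-value. Duplicate removal and the number of cytosines examined before listing are not given in the sources used here.

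Columns were assigned to the 2 libraries by name. Positions are printed as deposited; no source states whether they count from 0 or 1. Levels are percentages of unconverted reads. Shares carry exact (Clopper-Pearson) 95% intervals and medians 95% order-statistic intervals. Cytosines that lie close together are not independent, which makes both too narrow. Lowest listable values were found by trying every count under Fisher's exact test. Consecutive cytosines were compared by Fisher's exact test with Benjamini-Hochberg adjustment. Named positions are the 2 deepest per class of bisulfite-only level, the 5 largest groups, the 5 deepest CpGs listed on both strands, the 5 fullest bins and the 2 positions on each side of the read limit, outside chromosome 18. The members, classes and rules were chosen with earlier results of these data known. The comparison of neighbours was tested on simulated independent reads at these positions, without the listing rule and without reads shared by neighbours. The calculations ran in Python 3.11.15 with scipy 1.17.1, numpy 2.4.6 and pandas 2.3.3, and figures were drawn with matplotlib 3.10.9.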

Additional observations from a re-analysis of the deposited data

How the results depend on the processing

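No paired analysis was possible because each group has 1 library. The comparisons over 100000 bp and the correlation under other settings were added after seeing the data. Requiring 20 reads in each library left 1244 cytosines and p below 0.01 left 2310. With 20 reads the median bisulfite-only level was 48.3%, the protected level 82.4% and the rise 30.1 points, and the 5 classes from the lowest held 0.884, 12, 25.3, 26.9 and 34.9%. With p below 0.01 these were 30.8%, 86.7% and 50.5 points, with 6.71, 22.9 and 33.4% in the 3 lower classes and 8.57% at 60% or more. An upper limit of 50 reads gave 38.5%, 86.7% and 43.3 points, 5.12% with no unconverted read and 20.8% at 60% or more. No upper limit gave a rise of 40.6 points and 24.8% at 60% or more. With 1 cytosine per group the levels were 40.9 and 86.7%, with 26.4% from 20 to under 40% and 24.9% at 60% or more.

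Within 200 bp on the same strand, the median difference in bisulfite-only level was 12.9 points with 20 reads and 13 with p below 0.01, against 22.8 and 18.7 over 100000 bp on either strand, and the Spearman correlation stayed between 0.41 and 0.49 under the 4 settings run. The difference in rise was 6.08 points with 20 reads and 7.74 with no upper limit, and 0 after subtracting the lowest listable rise. On opposite strands it was 7.74 with 20 reads (19 pairs), 12.7 with p below 0.01 and 0.815 after the subtraction. The subtraction leaves 0 at the 76.6% of cytosines that stood at the lowest listable rise. Its median difference was also 0 for pairs over 100000 bp apart, so these subtracted values do not bear on likeness. The percentage of same-strand pairs called different in bisulfite-only reads was 1.1 over all pairs within 200 bp, 12.4 with 20 reads and 3.46 with no upper limit, and in protected reads 17.8 and 6.71 for the last 2. On opposite strands it was 10.5 with 20 reads, 6.67 with no upper limit and 0 of 38 pairs with p below 0.01 (protected reads: 21.1 with 20 reads, 2.63 with p below 0.01). Adjustment was over the pairs of each setting, 2006 for all pairs within 200 bp. Depth and the number of tests thus both enter these percentages. Percentages over all distances were not computed under these settings, so no background stands beside them.

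With 5 Mb bins the median was 1.8 cytosines per Mb, 3.78% of bins were empty and the densest 10% held 34.4%. With 20 reads these were 0, 72.3% and 62.5%, and with p below 0.01 they were 0, 57.3% and 49.8%, as fewer cytosines remain. With 1 cytosine per group the densest 10% held 42.7%. Depth sets the lowest rise that can be listed, and levels of single cytosines rest on as few as 10 reads.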
